A study of Mus musculus with 4 samples.

Results

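ADAM, PRSS and TMPRSS genes encode 3 groups of proteases and protease-like proteins, many of them made in male germ cells. They were taken from the expression tables by gene symbol, as Adam, Prss or Tmprss followed by a number (Adamts genes were left out), which gave 88 of 24411 genes listed. Of these, 43 averaged 1 TPM or more over the 4 libraries and were compared between the groups, among 14512 such genes in all. TPM divides a transcript level by the length of the gene and has 1 fixed total per library, so levels can be set side by side between genes.

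ADAM proteins are membrane proteins with a disintegrin domain and a metalloprotease-like domain. The widely expressed ones shed growth factors, cytokines and receptors from the cell surface, whereas the germ cell ones are placed on the sperm surface, where several are needed for passage into the oviduct and for contact with the egg. PRSS proteins are trypsin-like serine proteases, several of which are secreted into the acrosome or anchored to the germ cell membrane, and TMPRSS proteins are serine proteases with a membrane-spanning segment.

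The RNA came from GFP-positive cells sorted from testes at postnatal day 18, when spermatocytes of the first wave have entered meiotic prophase, and each library was made from 1 testis. All 4 libraries came from mice with a Rec8-3FH-GFP KI allele, which places GFP behind the meiotic cohesin REC8 so that the Rec8 gene drives the GFP used for the sort. The 2 controls were Zfp541+/-, one of them heterozygous and the other homozygous for the KI allele, and the labels do not say which is which. The other 2 libraries were labelled Zfp541 KO (KO-labelled libraries hereafter), from mice with a CRISPR deletion in the gene of this germ cell zinc finger protein, both homozygous for the KI allele, and the strain label of all 4 is C57BL/6 and CBA mixed.

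Genotype could not be read from the transcript of the targeted gene. Levels of Zfp541 were 112 and 72.2 TPM in controls 1 and 2, against 136 and 151 TPM in libraries 1 and 2 labelled Zfp541 KO, so every direction below rests on the labels. The controls stood apart from each other. Leydig cell markers summed to 2910 TPM in control 1, 18.0 TPM in control 2 and 332 and 504 TPM in the KO-labelled libraries, and macrophage markers to 2045, 21.6, 1687 and 1251 TPM in the same order, although the sort was for germ cells. In control 2, 1 of the 6 Leydig markers, Lhcgr, was listed at 0, and none of the 5 macrophage markers was. The summed level of 6 markers of leptotene and zygotene cells was 832 and 1157 TPM in controls 1 and 2, with 1801 and 1849 TPM in the KO-labelled pair, and that of 7 markers of pachytene cells was 6702, 3312, 2096 and 3062 TPM. Of 7 round spermatid markers, 2, 6, 1 and 2 were listed at 0 in the same order of libraries. Prm1 was above 0 in control 1 alone, and Prm2 and Tnp2 were highest there. Tnp1 and Sun5 were above 0 in the KO-labelled libraries alone. Spaca1, at 7.34, 13.9, 27.0 and 26.6 TPM in that order, was higher in both of these than in both controls, and Acrv1 was at most 0.35 TPM. In RNA from many cells, fewer cells of a type and less RNA per cell cannot be told apart.

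**Figure D1:**
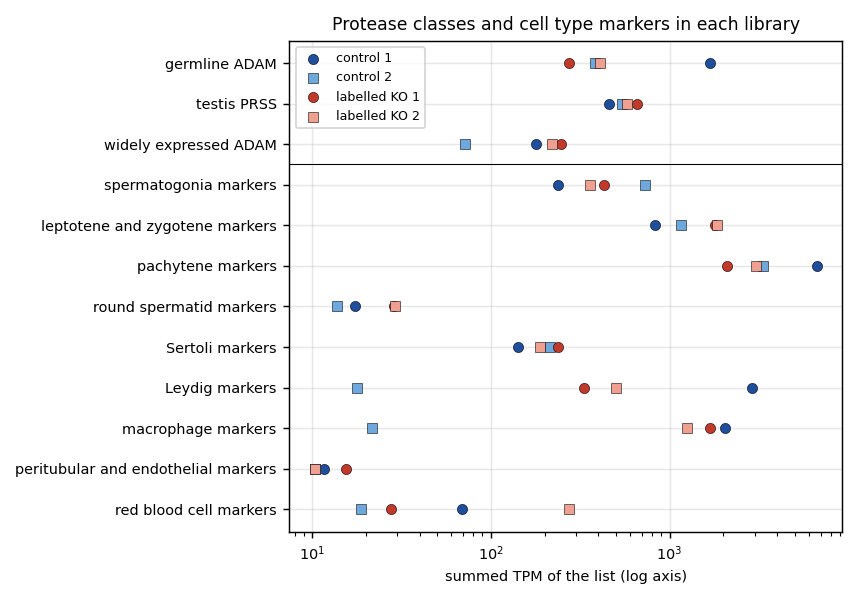
Summed TPM of 3 protease classes (germline ADAM, widely expressed ADAM and testis PRSS, by the classes given in the text) and of cell type marker lists in each library, on a log axis, with 1 point a library. Leydig and macrophage sums are lowest in control 2, at 18.0 and 21.6 TPM, and the germline ADAM sum is highest in control 1, at 1691 TPM.

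No member passed an FDR of 0.05 by limma on log2(TPM + 1), from which all fold changes and standard errors (SE) below are taken, and 0.0% of all genes tested did. The smallest adjusted p in the whole table was 0.310. At an unadjusted p under 0.05, 6 members were higher in the KO-labelled libraries (14.0% of 43, against 10.7% of all genes tested) and 1 was lower (2.33%, against 3.73%), both shares near those of all genes. This depended on the scaling. After median-ratio scaling of the libraries 3 members were higher (6.98%, against 4.33% of all genes) and 7 lower (16.3%, against 7.44%), and after quantile normalization 4 were higher (9.3%, against 7.07%) and 8 lower (18.6%, against 6.75%). The median log2 fold change was -0.08 over the members and 0.28 over all genes tested, a median that median-ratio scaling moved to -0.00. With 2 libraries against 2, an exact permutation test cannot give a p under 0.33. The p-values here measure the spread between libraries of single testes. Between the controls, which are different mice by their KI genotype, this spread also holds that difference (heterozygous against homozygous). The labels do not tie the KO-labelled testes to separate animals.

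Members at least 2-fold apart between the groups were more frequent than among all genes in both directions, as a description without a test. There were 9 at least 2-fold higher in the KO-labelled libraries (20.9%, against 8.99% of all genes) and 10 at least 2-fold lower (23.3%, against 5.22%). The balance of the directions rested on the scaling and on the control. After median-ratio scaling there were 4 higher (9.3%, against 4.22%) and 12 lower (27.9%, against 7.82%), and after quantile normalization 6 higher (14.0%, against 4.87%) and 12 lower (27.9%, against 7.01%). Without control 1 there were 11 higher (25.6%, against 24.2%) and 3 lower (6.98%, against 4.23%), and without control 2 there were 5 higher (11.6%, against 5.62%) and 18 lower (41.9%, against 11.4%). Both KO-labelled libraries were above both controls for 12 members (27.9%, against 38.6%) and below both for 11 (25.6%, against 12.1%). After median-ratio scaling the shares were 20.9% and 30.2% of members against 23.1% and 22.3% of all genes, and after quantile normalization 23.3% and 34.9% against 28.2% and 18.7%. Of the 43 members, 8 reached a mean of 1 TPM in only 1 of the groups, among them Prss39, Prss21, Prss58, Prss33 and Prss32, and such genes entered the comparison because of the group in which they were higher.

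The spread between the controls was larger than the difference between the groups for 34 of the 43 members (79.1%, against 61.6% of all genes). Control 1 was the highest of the 4 libraries for 24 members (55.8%, against 32.3% of all genes). The counts moved when single libraries were left out. Without control 1, 15 members were higher (34.9%, against 45.4% of all genes) and 4 lower (9.3%, against 12.3%) at an unadjusted p under 0.05. Without control 2, 9 were higher (20.9%, against 27.9%) and 20 lower (46.5%, against 19.3%). Without 1 or the other of the KO-labelled libraries, at most 1 member was higher and 0 were lower, and at most 0.462% and 1.48% of all genes. At an FDR of 0.05, 16 members passed without control 1 (37.2%, against 48.1% of all genes) and 22 without control 2 (51.2%, against 28.4%), when the lone control takes its spread from the close pair of KO-labelled libraries. Without control 1, 21 members were above the lone control (48.8%, against 65.8% of all genes), and without control 2, 24 were below it (55.8%, against 36.0%). Without the KO-labelled library 2, 17 were below both controls (39.5%, against 15.7%).

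**Figure D2:**
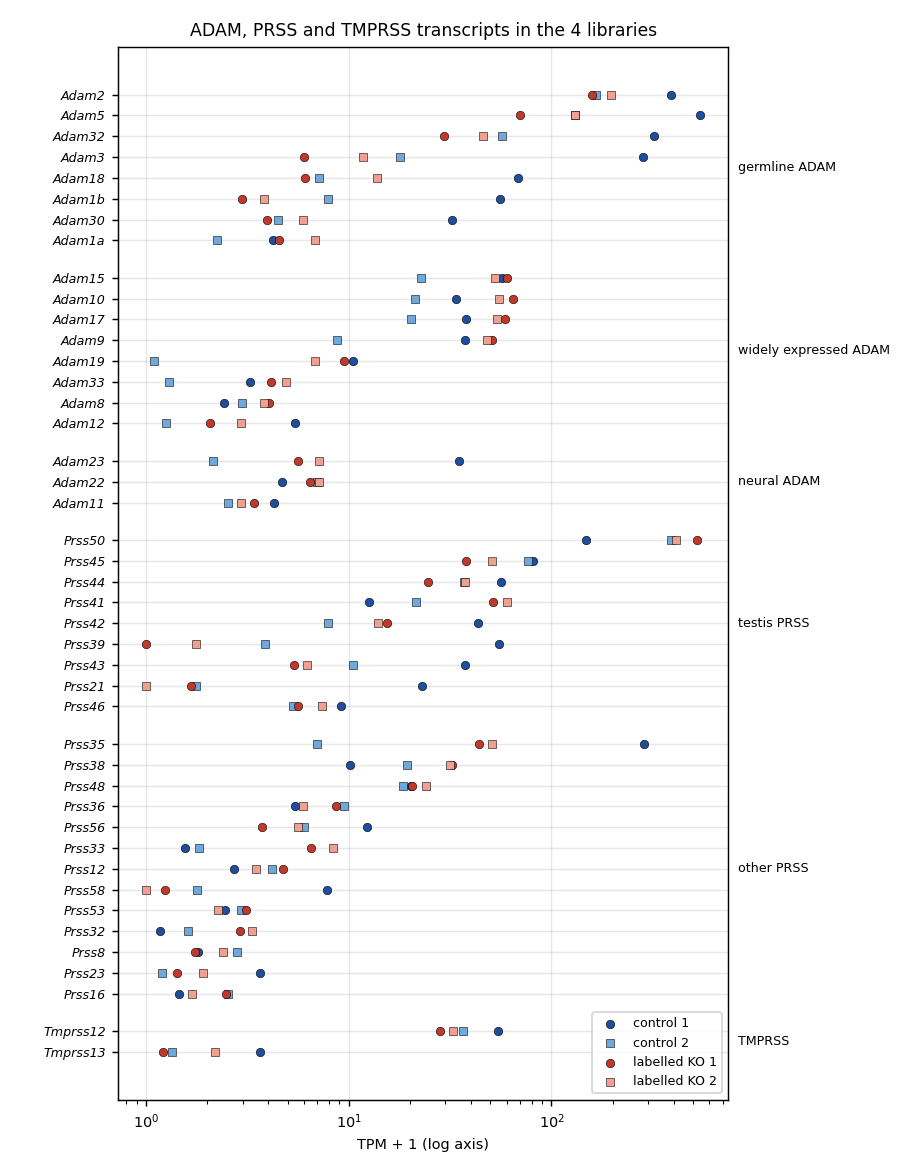
TPM + 1 of each member tested in each of the 4 libraries, on a log axis, grouped by class. For most germline ADAM genes the point of control 1 lies far above the other 3, whereas for Adam10, Adam17 and Prss41 both KO-labelled libraries lie above both controls.

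The germline ADAM genes, those known mainly from testis, were lower in both KO-labelled libraries than in control 1, except Adam1a, and most were nearer to control 2. Of 20 genes in this class, 8 passed the filter, with a median difference (log2) of -1.39, 7 of them negative and 1 positive. Their summed level was 1691 TPM in control 1, 385.4 TPM in control 2 and 274.1 and 407.7 TPM in the KO-labelled libraries. All 8 were higher in control 1 than in control 2 (as were 31 of the 43 members, 72.1%, and 66.0% of all genes tested), by a median of 2.66 on the log2 scale, where all genes tested differed by a median of 0.36. Set against control 1 alone, the medians of the class were -3.24 and -2.38 for the KO-labelled libraries 1 and 2, and set against control 2 alone they were -0.56 and 0.12.

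Adam3 (ENSMUSG00000031553, chr8:24677225-24725852), whose product on the sperm surface is needed for passage into the oviduct, reached 283 and 16.9 TPM in the control pair and 4.99 and 10.8 TPM in KO-labelled libraries 1 and 2. The groups did not overlap, but control 2 was closer to the KO-labelled libraries than to control 1. Its log2 fold change was -3.09 (SE 1.42, adjusted p = 0.396 by limma), and -1.09 without control 1.

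Adam1b (ENSMUSG00000062438, chr5:121500098-121503435), an ADAM1 isoform placed on the sperm surface with ADAM2, gave 54.5 and 6.86 TPM in the controls, compared with 1.97 and 2.83 TPM in the KO-labelled pair. Again, the controls lay above both KO-labelled libraries. The log2 fold change was -2.63 (SE 1.03, adjusted p = 0.360 by limma), or -1.22 without control 1 and -4.04 without control 2.

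Adam32 and Adam5, other sperm surface ADAM genes, had the same order of levels. Adam32 (ENSMUSG00000037437, chr8:24836140-24948804) was at 321, 55.8, 28.4 and 45.2 TPM (control 1, control 2, KO-labelled 1 and KO-labelled 2, the order of every list of 4 levels here), a log2 fold change of -1.88 (SE 0.90, adjusted p = 0.407 by limma). Adam5 (ENSMUSG00000031554, chr8:24727093-24824369) was at 540.94, 129.11, 69.05 and 128.89 TPM, a log2 fold change of -1.48 (SE 0.78, adjusted p = 0.439 by limma). For Adam5, control 2 and the KO-labelled library 2 were almost level. Without control 1 the log2 fold change of Adam32 was -0.62 and that of Adam5 was -0.45.

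The remaining members of the class overlapped between the groups or had the opposite order. Adam2 (chr14:66027329-66077733), which encodes the beta subunit of fertilin, had 389 and 165 TPM in controls 1 and 2, and 157 and 196 TPM in the KO-labelled pair, with a log2 fold change of -0.53 that was 0.08 without control 1. Adam18 was at 67.5, 6.15, 5.08 and 12.7 TPM and Adam30 at 31.2, 3.48, 2.97 and 4.92 TPM, and without control 1 their log2 fold changes went from -1.28 to 0.35 and from -1.31 to 0.11. For these 3 genes, control 2 lay between the KO-labelled libraries, so the sign of the difference rested on control 1. Adam1a, whose product pairs with ADAM2 in the endoplasmic reticulum, reached 3.21 and 1.23 TPM in the control pair and 3.54 and 5.78 TPM in KO-labelled libraries 1 and 2, a log2 fold change of 0.86 (SE 0.52, adjusted p = 0.491 by limma). In the annotation, 77.0% of the 75-base windows of Adam1a also belong to other genes, mainly Gm42878, and 31.1% of those of Adam1b, mainly to Adam1a, so the values of this pair are uncertain.

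The summed level of pachytene markers was highest in control 1 as well. Ldhc, a lactate dehydrogenase subunit of germ cells, was at 3659, 1819, 768 and 1230 TPM. Pgk2, a germ cell glycolytic enzyme, was at 79.0, 18.4, 1.59 and 2.71 TPM, and Ccna1, a cyclin of late meiotic prophase, at 48.2, 4.83, 2.20 and 1.80 TPM. These 3 of the 7 pachytene markers were lower in both KO-labelled libraries than in both controls, as were 12.1% of all genes tested. Hist1h1t, Piwil1 and Ybx2 overlapped between the groups with negative log2 fold changes (-0.41, -0.49 and -0.44), whereas Mybl1, a transcription factor of pachytene cells, was at 70.3, 38.3, 81.5 and 98.1 TPM, above both controls in both KO-labelled libraries. Their part in the levels of the germline ADAM genes was not tested.

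The widely expressed ADAM genes went the other way, with 7 of 8 positive and a median log2 fold change of 1.08 (0.28 over all genes tested). Both KO-labelled libraries were above both controls for 5 of the 8, and for 38.6% of all genes tested. The summed level of the class was 180.1 and 71.46 TPM in controls 1 and 2, with 246.8 and 220.3 TPM in the KO-labelled pair. The median difference from control 1 alone was 0.40 and 0.42 for the KO-labelled libraries 1 and 2, and from control 2 alone 1.58 and 1.4. The class kept its sign after median-ratio scaling (median 0.77) and after quantile normalization (median 0.80), as did the germline ADAM genes (-1.68 and -1.65).

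Adam10 (ENSMUSG00000054693, chr9:70678997-70780229), a sheddase that cleaves Notch receptors, gave 33.0 and 20.1 TPM in the controls, compared with 63.8 and 54.3 TPM in the KO-labelled pair. Both KO-labelled libraries were above both controls and close to each other. The difference on the log2 scale was 1.16 (SE 0.32, unadjusted p = 0.0196, adjusted p = 0.315 by limma), with 1.5 without control 1 and 0.82 without control 2.

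Adam17 (ENSMUSG00000052593, chr12:21323509-21373632), the enzyme that releases tumour necrosis factor from the cell surface, had 37.0 and 19.3 TPM in controls 1 and 2, and 57.9 and 52.8 TPM in the KO-labelled pair. The groups did not overlap. The log2 fold change was 1.02 (SE 0.37, unadjusted p = 0.0483, adjusted p = 0.343 by limma), or 0.57 without control 2.

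For most others of this class, the difference depended more on control 2. Adam9 (chr8:24949611-25016927), a membrane sheddase, reached 36.6 and 7.78 TPM in the control pair and 50.1 and 47.0 TPM in KO-labelled libraries 1 and 2, a log2 fold change of 1.45 that was 0.40 without control 2. Adam15 was at 55.9, 21.6, 59.4 and 51.7 TPM and Adam33 at 2.24, 0.30, 3.12 and 3.92 TPM, and their log2 fold changes of 0.65 and 1.13 were -0.01 and 0.47 without control 2. Adam19 was at 9.53, 0.09, 8.43 and 5.83 TPM, Adam8, an ADAM of leukocytes, at 1.42, 1.98, 3.03 and 2.82 TPM (log2 fold change 0.55, and 0.70 without control 2), and Adam12 at 4.43, 0.25, 1.07 and 1.95 TPM. Except for Adam8, each gene of the class was lowest in control 2, the library with the lowest Leydig and macrophage sums. The part of those cell types in these levels was not tested.

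The promoters of Adam10 and Adam17, the widely expressed ADAM genes with the smallest p, are shown because they are rich in CpG, unlike those of the serine protease genes shown further on. Each sequence is the 250 bases before the annotated transcript start from RefSeq (GRCm38.p6), read 5' to 3' on the strand of the gene, with CpG in capitals.
Adam10 (chr9:70678732-70678981, plus strand): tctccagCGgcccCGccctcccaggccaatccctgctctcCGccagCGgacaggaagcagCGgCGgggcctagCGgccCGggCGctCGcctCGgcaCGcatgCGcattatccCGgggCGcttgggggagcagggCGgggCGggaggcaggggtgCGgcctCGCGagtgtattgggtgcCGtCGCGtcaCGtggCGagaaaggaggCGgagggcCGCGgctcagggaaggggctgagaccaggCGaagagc
Adam17 (chr12:21373633-21373882, minus strand): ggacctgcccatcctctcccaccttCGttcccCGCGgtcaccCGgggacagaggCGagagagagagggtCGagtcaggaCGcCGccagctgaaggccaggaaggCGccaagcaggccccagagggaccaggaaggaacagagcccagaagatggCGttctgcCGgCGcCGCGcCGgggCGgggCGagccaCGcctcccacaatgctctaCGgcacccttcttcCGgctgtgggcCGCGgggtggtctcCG
The Adam10 sequence holds 29 CpG and 74.0% G or C, and the Adam17 sequence 23 CpG and 70.4%. The GC box letters GGGCGG, searched on both strands, were in 2 places in the former and 1 in the latter, where matches that overlap were counted as 1 place. In windows of 300 bases around the start, they were found in 4 of the 5 promoters of widely expressed ADAM genes that matched, in 0 of 2 of germline ADAM genes, in 2 of 7 of testis PRSS genes, in 35.9% of all 27025 promoters and in 62.6% of the promoters of genes tested. The median CpG count in these windows was 25 for the widely expressed ADAM genes, 3 for the germline ADAM genes, 11 for the testis PRSS genes that were tested, with 20 for all genes tested and 7 for all promoters. A promoter was found for 57 of the 88 members.

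Of 3 ADAM genes of neural tissue, whose proteins lack a working protease site and bind partners at the cell surface, none was outside the range of the controls in both KO-labelled libraries. Adam23 gave 33.8 and 1.13 TPM in the controls, compared with 4.65 and 6.14 TPM in the KO-labelled pair. The KO-labelled libraries lay between the controls, and the log2 fold change of -0.44 (SE 1.42) was 1.58 without control 1 and -2.45 without control 2. Adam22 was at 3.71 to 6.17 TPM and Adam11 at 1.53 to 3.28 TPM over the 4 libraries, with log2 fold changes of 0.24 and -0.06. Adam7, known from the epididymis, was listed at 0 in every library, and Adam28, known from lymphocytes, was at 0.19 TPM in control 1 and listed at 0 in the other 3.

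A row of 4 ADAM genes of germ cells and Adam9 lie side by side on the minus strand of chromosome 8 (chr8:24602246-25016927 in GRCm38, GENCODE M21), in the order Adam18, Adam3, Adam5, Adam32 and Adam9 over 415 kb. Control 1 was the highest library for each of the 4 germ cell genes. At Adam9, the last gene of the row, both KO-labelled libraries were the highest.

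**Figure D3:**
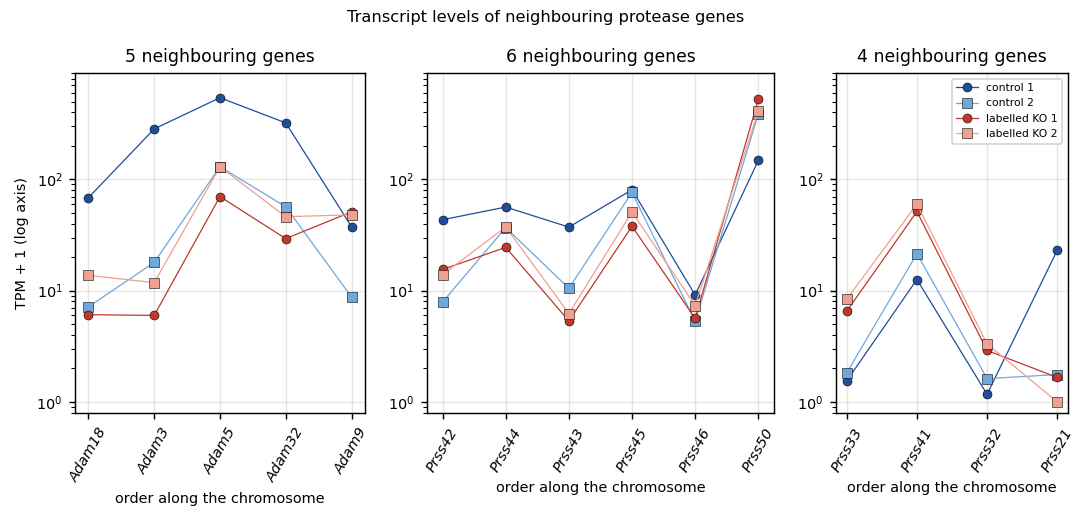
TPM + 1 (log axis) of neighbouring protease genes in each library, in their order on chromosomes 8, 9 and 17 from left to right, with 1 line a library. Control 1 is highest from Adam18 to Adam32 and lowest at Prss50, and both KO-labelled libraries are above both controls at Prss33, Prss41 and Prss32 but not at Prss21.

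The testis PRSS genes did not move as 1 group. Of 15 genes, 9 passed the filter, with a median difference (log2) of -0.59, 2 positive and 7 negative. The summed level of the class was 459 and 542.4 TPM in controls 1 and 2, with 658.2 and 581.5 TPM in the KO-labelled pair. Prss50 alone held 147, 386, 523 and 411 TPM of it, and the sums had the order of this gene. Both KO-labelled libraries were above both controls for 2 genes, Prss41 and Prss50 (38.6% of all genes tested). They were below both for 4, Prss45, Prss39, Prss43 and Prss21 (12.1% of all genes tested). The median was -0.91 after median-ratio scaling and -0.87 after quantile normalization.

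Prss50 had the highest mean level of all members. This gene (ENSMUSG00000048752, chr9:110857967-110864629), which encodes a testis-specific threonine protease-like protein, had 147 and 386 TPM in controls 1 and 2, and 523 and 411 TPM in the KO-labelled pair. Control 1 was far below the other 3 libraries, and control 2 was close to the KO-labelled library 2. The difference on the log2 scale was 0.96 (SE 0.52, adjusted p = 0.448 by limma), or 0.26 without control 1.

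Prss45 (ENSMUSG00000047257, chr9:110834588-110841313), a testis serine protease gene of the same row, was the only member lower at an unadjusted p under 0.05 in the full comparison. It reached 79.6 and 75.4 TPM in the control pair and 36.9 and 49.9 TPM in KO-labelled libraries 1 and 2. The controls were close to each other and above both KO-labelled libraries. The log2 fold change was -0.84 (SE 0.24, unadjusted p = 0.0209, adjusted p = 0.315 by limma), and it lay between -1.05 and -0.63 when single libraries were left out.

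Prss42, Prss43 and Prss44 encode serine proteases of spermatocytes and spermatids. Prss43 (chr9:110826690-110831839) gave 36.3 and 9.51 TPM in the controls, compared with 4.34 and 5.22 TPM in the KO-labelled pair, a log2 fold change of -1.78 (SE 0.71, adjusted p = 0.362 by limma) that was -0.87 without control 1. Prss42 was at 42.4, 6.91, 14.5 and 12.9 TPM, with a log2 fold change of -0.34 that was 0.89 without control 1. Prss44 was at 55.4, 35.9, 23.5 and 36.4 TPM, with a log2 fold change of -0.59. Of the 3, only Prss43 did not overlap between the groups, and all 3 were highest in control 1. Prss46, between Prss45 and Prss50, was at 4.29 to 8.14 TPM with a log2 fold change of -0.11. These 6 genes lie on the plus strand within 66.5 kb of chromosome 9 (chr9:110798166-110864629), yet Prss50 at one end was lowest in control 1 and the other 5 were highest there.

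Prss39 (ENSMUSG00000026125, chr1:34498410-34503063), which encodes an acrosomal serine protease, had the lowest log2 fold change of the members tested with a pseudocount of 1, whereas with 5 Adam3 was lower (-2.66, against -2.01). Its levels were 54.2 and 2.87 TPM in the control pair and 0.76 TPM in the KO-labelled library 2, and it was listed at 0 in the KO-labelled library 1. Both KO-labelled libraries were below control 2, but control 1 alone held most of the transcript. The difference on the log2 scale was -3.46 (SE 1.39, adjusted p = 0.364 by limma), or -1.54 without control 1. Its neighbour in name, Prss40, an acrosomal protease gene as well, was at 1.77 TPM in control 1, listed at 0 in control 2 and the KO-labelled library 1, and at 0.15 TPM in the KO-labelled library 2, below the filter.

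A row of 4 PRSS genes lies on chromosome 17 (chr17:23833347-23873114, 39.8 kb). In both KO-labelled libraries, 3 of them were higher than in both controls (38.6% of all genes tested) and 1 was lower (12.1%). Except for Prss41, each reached a mean of 1 TPM in only 1 of the groups. The higher ones were Prss33, Prss41 and Prss32, and the lower one was Prss21. Their promoters are shown because members next to each other differed in the same direction, as 250 bases before the RefSeq start on the strand of each gene, with CpG in capitals.
Prss33 (chr17:23835768-23836017, minus strand): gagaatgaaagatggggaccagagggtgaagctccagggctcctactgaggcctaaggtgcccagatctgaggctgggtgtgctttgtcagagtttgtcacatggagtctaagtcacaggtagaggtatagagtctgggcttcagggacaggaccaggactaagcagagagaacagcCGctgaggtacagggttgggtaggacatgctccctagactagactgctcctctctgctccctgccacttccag
Prss41 (chr17:23844157-23844406, minus strand): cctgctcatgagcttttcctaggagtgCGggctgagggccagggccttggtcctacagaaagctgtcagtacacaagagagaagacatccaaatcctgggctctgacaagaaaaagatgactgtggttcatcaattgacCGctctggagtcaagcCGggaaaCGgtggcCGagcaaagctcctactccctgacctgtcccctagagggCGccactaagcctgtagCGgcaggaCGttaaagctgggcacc
Prss32 (chr17:23853522-23853771, plus strand): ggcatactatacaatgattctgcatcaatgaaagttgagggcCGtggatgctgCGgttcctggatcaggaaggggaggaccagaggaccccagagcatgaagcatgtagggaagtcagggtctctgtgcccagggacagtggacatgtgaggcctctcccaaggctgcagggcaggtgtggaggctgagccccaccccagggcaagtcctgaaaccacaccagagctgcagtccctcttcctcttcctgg
Prss21 (chr17:23867822-23868071, plus strand): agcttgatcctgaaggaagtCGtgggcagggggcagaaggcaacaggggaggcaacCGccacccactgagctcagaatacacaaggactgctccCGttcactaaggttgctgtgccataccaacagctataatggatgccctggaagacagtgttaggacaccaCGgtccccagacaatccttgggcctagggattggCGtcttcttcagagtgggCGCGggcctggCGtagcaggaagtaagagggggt
They hold 1, 8, 2 and 8 CpG in the order shown and 55.2% to 58.4% G or C. The RefSeq starts differ from the outermost GENCODE ends printed here as gene positions, so that the Prss33 and Prss32 windows lie inside those positions and the Prss41 and Prss21 windows overlap them at the edge. None holds GGGCGG on either strand, which says only that these letters are not in this window.

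Prss41 (ENSMUSG00000024114, chr17:23836785-23844172), which encodes a membrane-anchored testis serine protease, had 11.6 and 20.5 TPM in controls 1 and 2, and 50.5 and 59.1 TPM in the KO-labelled pair. The controls lay well below both KO-labelled libraries. The log2 fold change was 1.76 (SE 0.35, unadjusted p = 0.00629, adjusted p = 0.310 by limma), and 1.37 without control 1 and 2.14 without control 2.

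Prss33 (ENSMUSG00000049620, chr17:23833347-23836056), a trypsin-like protease gene on the same strand next to Prss41, reached 0.55 and 0.83 TPM in the control pair and 5.53 and 7.38 TPM in KO-labelled libraries 1 and 2. The controls were under 1 TPM and alike. Its log2 fold change with a pseudocount of 1 was 2.13, the highest of the members tested, and with 5 it was 1.01, below Prss41 (1.54), Adam9 (1.22) and Adam10 (1.05). With the former, the SE was 0.40, the unadjusted p = 0.00488 and the adjusted p = 0.310 by limma, and the range was 1.96 to 2.31 when single libraries were left out.

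Prss32 (chr17:23843855-23859779), a trypsin-like protease gene, gave 0.17 and 0.62 TPM in the controls, compared with 1.90 and 2.32 TPM in the KO-labelled pair, a log2 fold change of 1.17 (SE 0.41, adjusted p = 0.333 by limma). Its exons share 59 bases with those of Prss41 on the opposite strand, and 21.1% of its windows also belong to other genes, mainly an antisense gene, so at these low levels its reads cannot be fully told apart from theirs. Prss21 (chr17:23868056-23873114), which encodes testisin, a protease anchored to the germ cell membrane, was at 22.1 and 0.76 TPM in the controls, at 0.66 TPM in the KO-labelled library 1 and listed at 0 in the KO-labelled library 2. For Prss21, control 2 was near the KO-labelled libraries, and the log2 fold change of -2.31 (SE 1.34, adjusted p = 0.475 by limma) was -0.45 without control 1.

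Of the PRSS genes known from other tissues or little described, a class of 23 that holds Prss33 and Prss32 too, 13 passed the filter, with a median difference (log2) of 0.08. Prss38 (ENSMUSG00000049291, chr11:59372669-59375657), a serine protease gene, had 9.09 and 18.4 TPM in controls 1 and 2, and 31.4 and 30.7 TPM in the KO-labelled pair. The KO-labelled libraries were level with each other and above both controls. The difference on the log2 scale was 1.2 (SE 0.41, unadjusted p = 0.0404, adjusted p = 0.331 by limma), with 0.72 without control 1 and 1.67 without control 2. Prss33, Prss41, Prss32, Prss38, Adam10 and Adam17 were the 6 members higher at an unadjusted p under 0.05. For each, both KO-labelled libraries were above both controls, so leaving out any single library could not turn the direction.

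Most markers of earlier meiotic cells were also higher in the KO-labelled libraries, with a median log2 fold change of 0.94 over 6 leptotene and zygotene markers. Of these, 5 were above both controls in both libraries, as were 38.6% of all genes tested. The other, Spo11, was highest in control 1, at 95.1, 66.9, 64.2 and 79.6 TPM. Spermatogonial markers summed to 239.1 and 726.2 TPM in the control pair and to 429.4 and 359.6 TPM in the KO-labelled libraries, and Sertoli cell markers to 141.3, 214.3, 239.0 and 189.9 TPM. Both sums were lowest in control 1, but not every marker was. Of the spermatogonial markers, Dmrt1, Nanos3 and Uchl1 were lowest there, Kit was highest there, and Gfra1 and Zbtb16 were lowest in other libraries. Uchl1 alone held 559 TPM of the spermatogonial sum in control 2. Among Sertoli cell markers, Gata4 was highest in control 1 and the others were lowest there. The part of these cells in the levels of Prss41, Prss38 and Prss50, which were also lowest in control 1, was not tested.

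Prss35 (ENSMUSG00000033491, chr9:86743649-86758443), which encodes a protease-like protein without the usual catalytic serine, differed most between the controls on the log2(TPM + 1) scale. It was at 286 TPM in control 1, 6.00 TPM in control 2 and 43.1 and 49.7 TPM in the KO-labelled libraries. The KO-labelled libraries were close to each other and lay between the controls, so that the log2 fold change of 0.08 (SE 1.84) was 2.76 without control 1 and -2.60 without control 2. The order of the 4 libraries was the same as for the summed Leydig markers (2910, 18.0, 332 and 504 TPM) and for Adam23, and the part of Leydig cells in it was not tested.

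Of the 13 tested PRSS genes known from other tissues or little described, Prss58 and Prss56 were lower in both KO-labelled libraries than in both controls (12.1% of all genes tested). For 4 of the 13 both KO-labelled libraries were above both controls (38.6% of all genes tested). Prss58 was at 6.85, 0.78, 0.24 and 0.00 TPM, a log2 fold change of -1.75 (SE 0.83, adjusted p = 0.405 by limma) that was -0.68 without control 1. Prss56, a gene known for its role in eye growth, reached 11.25 and 5.0 TPM in the control pair and 2.73 and 4.64 TPM in KO-labelled libraries 1 and 2. Prss48 was nearly level, at 19.3, 17.5, 19.5 and 23.1 TPM. The other 6 of this class that passed the filter (Prss36, Prss12, Prss53, Prss8, Prss23 and Prss16) had means of at most 6.46 TPM in either group, and their log2 fold changes lay between -0.35 and 0.26. Other genes, mainly Gm21974, share 77.1% of the windows of Prss53, so its value is uncertain.

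**Figure D4:**
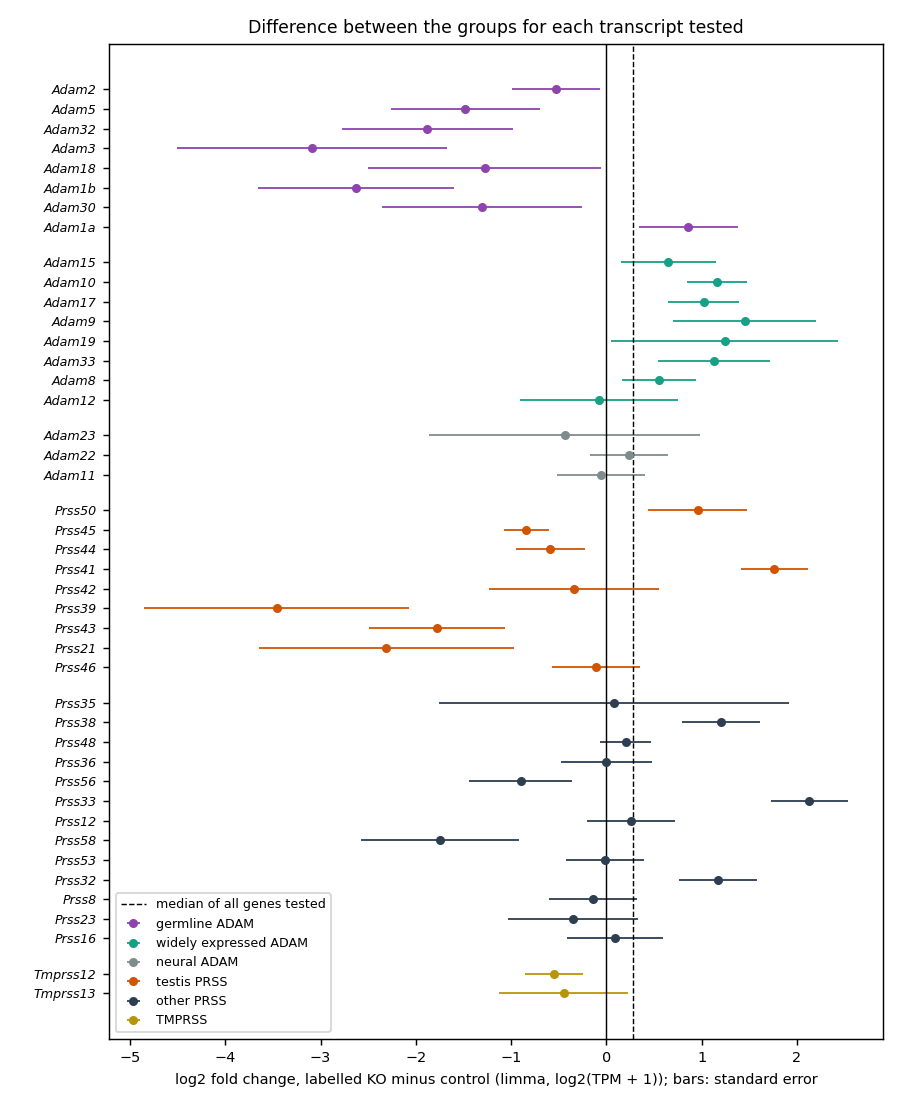
Log2 fold change of each member tested, KO-labelled libraries minus controls on the log2(TPM + 1) scale, with the standard error from limma as bars, colours by class and a dashed line at the median of all genes tested, 0.28. The germline ADAM genes lie mostly below 0 with wide bars, the widely expressed ADAM genes mostly above the dashed line, and no member passed an FDR of 0.05.

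TMPRSS genes were mostly listed at or near 0 TPM in these cells. Of 17, 8 were listed at 0 in all 4 libraries, 7 had means of at most 0.525 TPM (that of Tmprss9) and 2 passed the filter. Tmprss12 (chr15:100280837-100293066), a testis gene whose product is needed for male fertility, gave 53.4 and 35.5 TPM in the controls, compared with 27.2 and 31.8 TPM in the KO-labelled pair. The 2 groups did not overlap, with a log2 fold change of -0.55 (SE 0.30, adjusted p = 0.445 by limma). Tmprss13 was at 2.66, 0.34, 0.21 and 1.18 TPM, and its log2 fold change of -0.45 was 0.28 without control 1.

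In all, 30 of the 88 members were listed at 0 in every library and 15 more fell below the filter. The members at 0 included 10 germline ADAM genes, among them Adam6a, Adam24, Adam26a and Adam29, and 4 testis PRSS genes, Prss37, Prss51, Prss52 and Prss55, the first of which is needed in sperm for passage into the oviduct. The sequencing depth is unknown, so no upper limit can be put on these levels. Round spermatid markers were low in the same libraries, with sums of 17.5, 13.9, 28.9 and 29.0 TPM over 7 genes. Spaca1 alone held 7.34, 13.9, 27.0 and 26.6 TPM of these sums.

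**Figure D5:**
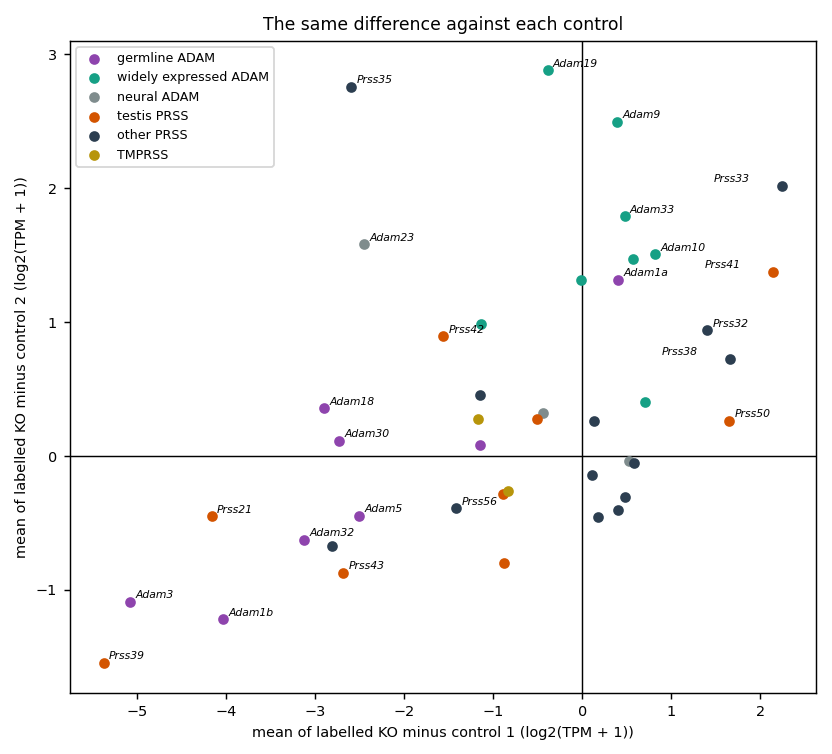
Mean log2(TPM + 1) of the KO-labelled libraries minus control 1 (horizontal axis) and minus control 2 (vertical axis) for each member tested, by class. In the upper left, the mean of the KO-labelled libraries lay between the controls, and for Prss35 and Adam23 both of these libraries did. Prss33, Prss41, Prss32 and Prss38 were above both controls, and Adam3, Adam1b, Adam32, Prss39 and Prss43 below both.

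Genes whose products act on ADAM and PRSS proteins were looked at from a list. Of 11 genes that act in the folding, processing or surface placement of ADAM3, 9 passed the filter, 7 positive and 2 negative. The median log2 fold change was 0.37 (0.28 over all genes tested), with 0 past the FDR. At an unadjusted p under 0.05 by limma, 1 was higher (10.7% of all genes tested) and 1 lower (3.73%). Both KO-labelled libraries were above both controls for 5 of the 9 (38.6% of all genes tested) and below both for 1 (12.1%). Calr3, an endoplasmic reticulum chaperone of germ cells, had 4.82 and 8.4 TPM in controls 1 and 2, and 20.6 and 20.5 TPM in the KO-labelled pair (log2 fold change 1.54, SE 0.39, adjusted p = 0.310 by limma). Cmtm2a, a membrane protein gene needed for ADAM3 on sperm, reached 527 and 138 TPM in the control pair and 36.5 and 64.8 TPM in KO-labelled libraries 1 and 2 (log2 fold change -2.45, SE 0.73, adjusted p = 0.319 by limma). For both genes the groups did not overlap, in opposite directions.

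The other genes of that list with high levels overlapped between the groups or differed little from control 2. Clgn, which encodes the chaperone calmegin, was at 717, 289, 379 and 510 TPM, and Tex101, a germ cell membrane protein gene, at 1354, 3627, 2984 and 2742 TPM. Ly6k, which encodes a partner of TEX101, gave 602 and 1122 TPM in the controls, compared with 1328 and 1236 TPM in the KO-labelled pair. Clgn was highest in control 1, and Tex101 and Ly6k were lowest there.

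All 5 proprotein convertases, enzymes that cleave the prodomains of ADAM and other precursors, overlapped between the groups, with log2 fold changes from -0.75 to 0.36. Pcsk4, the convertase of germ cells, was at 76.1, 16.3, 24.4 and 35.3 TPM, and Furin at 26.6, 17.1, 30.9 and 24.2 TPM. Of 9 protease inhibitors, 8 passed the filter, 5 positive and 3 negative, with a median difference (log2) of 0.20 (0.28 over all genes tested) and 0 past the FDR. Both KO-labelled libraries were above both controls for 2 of the 8 (38.6% of all genes tested) and below both for 1 (12.1%). Spink2, an inhibitor of acrosomal serine proteases, had 736 and 300 TPM in controls 1 and 2, and 89.5 and 123 TPM in the KO-labelled pair. The 2 groups did not overlap, with a log2 fold change of -2.15 (SE 0.50, unadjusted p = 0.0106, adjusted p = 0.310 by limma). Reck, a membrane inhibitor of ADAM10 and matrix proteases, reached 16.95 and 7.19 TPM in the control pair and 20.8 and 21.9 TPM in KO-labelled libraries 1 and 2, with a log2 fold change of 0.88.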

How the data were processed

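RNA-seq covered GFP-positive cells from testes at postnatal day 18, with 2 control Zfp541+/- libraries and 2 libraries labelled Zfp541 KO, made as unstranded poly(A) libraries of single 75-nt reads. Per the labels, the authors trimmed reads with Trim Galore 0.5.0 and cutadapt 1.16, aligned them to mm10 with STAR 2.6.0a and estimated expression with RSEM 1.3.1, and they deposited TPM per gene and sample. TPM keeps no sequencing depth, so depth is unknown and counting error was given no interval. The differential test of RSEM named in the methods needs estimated counts and was not repeated.

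Samples were grouped by their labels. Genes averaging 1 TPM or more were kept, and log2(TPM + 1) was fitted by genotype in R 4.3.3 with limma 3.58.1, using its mean-variance trend, and p-values were adjusted by Benjamini-Hochberg over all 14512 genes. Fold changes on this scale understate those of low genes. The fit was tested on simulated data that had the same spread in both groups. Such data cannot show how it does where the controls lie further apart than the KO-labelled libraries, as for Adam3 and Prss35. Members were chosen by symbol, and the members, classes and lists were chosen with earlier results of these data known. The genes named were members with a mean of at least 10 TPM, those that did not overlap between groups and differed at least 2-fold, the 3 highest of each class, and Zfp541, and the other members named were chosen after their values were seen. Gene positions came from GENCODE M21 (GRCm38) and promoters from RefSeq (GRCm38.p6). Protein sequences were not used here. Alternatives covered the pseudocount, filter, scaling, variance trend, FDR, replicate block and leaving out each library.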

Additional observations from a re-analysis of the deposited data

How the results depend on the processing

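No member passed an FDR of 0.05 (limma) under any alternative that kept all 4 libraries, and leaving out 1 library gave 0 to 22 members. Members higher at an unadjusted p under 0.05 (6 of 43) numbered 3 with median-ratio scaling (4.33% of all genes) and 0 to 15 when 1 library was left out (0.407% to 45.4%). Members lower at that p (1 of 43) numbered 2 with 0.1 as the pseudocount (3.85% of all genes), 7 after median-ratio scaling (7.44%), 8 after quantile normalization (6.75%) and 0 to 20 when 1 library was left out (0.854% to 19.3%). Members above both controls (12) numbered 7 of 29 (24.1%, against 41.8% of all genes) with a filter at 5 TPM, which tests fewer genes. When 1 library was left out, they numbered 13 to 21 (42.9% to 65.8% of all genes). Members below both (11) then numbered 12 to 24 (15.6% to 36.0% of all genes). Where 1 library was left out, the lone sample of its group was assumed to vary like the other group. On leaving out 1 library, the medians ranged over -0.51 to 0.27 for all members, -2.82 to -0.18 for germline ADAM genes, -0.90 to -0.29 for testis PRSS genes and 0.44 to 1.49 for widely expressed ADAM genes.

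The direction turned for single genes. Prss35 was at a log2 fold change of -0.14 at a pseudocount of 5, -0.22 after median-ratio scaling and -0.31 after quantile normalization, Prss48 at -0.11 and -0.08 with these scalings, and Adam22 at -0.04 with median-ratio scaling. On leaving out 1 library, the ranges were -1.14 to 0.08 for Adam2, -2.90 to 0.35 for Adam18, -2.73 to 0.11 for Adam30, -2.45 to 1.58 for Adam23, -0.04 to 0.53 for Adam22, -0.44 to 0.32 for Adam11, -0.01 to 1.32 for Adam15, -2.60 to 2.76 for Prss35, -1.56 to 0.89 for Prss42 and -1.17 to 0.28 for Tmprss13. The cause was not tested. For 20 of 31 named members no alternative turned the direction.

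With the replicate number as a block, 6 members were lower (14.0%, against 3.11% of all genes) and 5 higher (11.6%, against 4.52%) at an unadjusted p under 0.05 and 0 passed the FDR. The samples share only a number, since deviations of same-numbered samples from their group means correlated at -0.156 across genes. With the pairing crossed, an alternative chosen after seeing the data, 8 members were lower (4.51% of all genes) and 7 higher (8.68%) at that p, and 0 members and 87 of all genes passed the FDR. The depth of each library is unknown, which limits every statement on genes listed at 0.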
